A study of Drosophila melanogaster with 12 samples.

Results

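The deposited expression table of a Drosophila melanogaster oocyte series held 60 records with a noncoding RNA accession among 5421 records, the other 5361 being protein coding. The 60 were taken by their accession type alone, without use of any measured value. By symbol and reference annotation they fell into 6 ribosomal RNA and ribosomal pseudogene records, 13 CR records that matched nothing in the reference used here, 1 record of 7SL RNA, 2 of RNase P and RNase MRP RNA, 10 small nuclear RNAs, 16 small nucleolar RNAs (1 of them a Cajal body RNA) and 12 other CR genes. Total RNA was sequenced after ribosomal RNA removal in 12 libraries, 2 biological replicates for each of 6 groups. Wild type flies were w1118. The mutant flies carried wispKG5287, an allele of wispy (wisp) described by the submitters as null. Each genotype was sampled as immature oocytes of oogenesis stages 9 to 10, as mature oocytes of stage 14 and as activated unfertilized eggs aged 0 to 1 h. Oocytes were dissected by hand from females aged 3 or 4 days. Activated eggs were collected at 25 °C, and the protocol speaks of virgin w1118 females mated to sterile sons of tud1 mothers, without naming the mothers of the mutant eggs.

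Wisp is a cytoplasmic poly(A) polymerase of the germline that lengthens the tails of maternal mRNAs. Most of the RNAs described here do other work. 7SL RNA is the scaffold of the signal recognition particle, RNase P RNA and RNase MRP RNA are the catalytic RNAs that process tRNA and ribosomal RNA precursors, small nuclear RNAs form the spliceosome or, as 7SK, restrain the elongation kinase P-TEFb, and small nucleolar RNAs guide the methylation and pseudouridylation of ribosomal RNA or its cleavage. In flies many small nucleolar RNAs lie in introns of other genes and are cut out of the excised intron. In the germline of the growing egg chamber the transcribing cells are mainly the nurse cells. The mature oocyte and the freshly activated egg are nearly silent in transcription, so the RNA of later stages is largely inherited.

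Values are the authors' normalised read counts and are relative within a library, since no source used here gives the scaling. Library sums ranged from 11081267 to 14089899, and the sequencing depth behind them is unknown. The lowest value was 100.07, so a record is in the table only when it reached 100 in all 12 libraries. The wisp record lay between 188.5 and 718.1 in the 6 mutant libraries and between 3623 and 17226 in the 6 wild type libraries. All 8 germline markers and 4 of 4 nurse cell and ring canal markers were in the table. None of the 14 follicle cell markers and none of the 3 testis markers was (0 of each). A gene under 100 in any library is left out of the table. The absence of these markers therefore does not show that the immature samples lacked follicle cells. In bulk samples fewer cells of a type and less RNA per cell cannot be told apart. Of all records, 9 in wild type and 7 in mutant mature oocytes differed by at least 2-fold between replicates, and noncoding members made up 7 of the 9 and 5 of the 7. In wild type immature oocytes 1117 of all records did, 18 of them noncoding, and in mutant immature oocytes 931 did, 8 of them noncoding.

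The clearest difference among the noncoding records was the fall of the small nucleolar RNAs as mutant oocytes matured. Of 16 records 15 fell, where 11.4% of all 5421 records fell, with a class median log2 change of -2.57 against 0.05 over all records. Wild type moved the same way (16 of 16 changes negative, class median -1.58) with 0 calls, where 0 of all 5421 records were called. In the fit used here, which has no replicate block, the difference between the falls was called for 0 of the 16, against 1.03% of all records. With a replicate block within each stage it was called for 8 of the 16, and for 531 of all 5421 records. Whether replicate numbers pair libraries is not stated. Between genotypes, the hairpin RNA CR32207 was higher in the mutant in mature oocytes and in activated eggs, 7SL RNA, RNase P RNA, 7SK RNA and the antisense RNA CR44431 were higher in mutant activated eggs, and the antisense RNAs CR43809 and CR43430 were lower in mutant mature oocytes and mutant activated eggs, respectively. Calls are from limma on log2(value + 1) at a Benjamini-Hochberg adjusted p under 0.05 over all 5421 records.

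The noncoding records held a large share of the deposited signal. In wild type immature oocytes they made up 25.8% and 16.3% of the library sum in replicates 1 and 2, and in mutant immature oocytes 18.5% and 16.7%. In mature oocytes the share was 13.0% and 16.4% in wild type and 14.9% and 16.3% in the mutant. In activated eggs it was 14.9% and 10.4% in wild type and 22.6% and 21.4% in the mutant. The mutant activated eggs therefore lay above both wild type activated libraries, while the genotypes overlapped at the earlier stages. As group means the shares were 21.1% ± 6.77 in wild type and 17.6% ± 1.26 in mutant immature oocytes, 14.7% ± 2.37 and 15.6% ± 1.01 in mature oocytes, and 12.6% ± 3.17 and 22.0% ± 0.853 in activated eggs (SD, n = 2 each). No test was made on these sums. Of the 22.0% in mutant activated eggs, 11.2% ± 0.508 came from the 13 unmatched CR records, 6.04% ± 0.0252 from ribosomal RNA records and 3.71% ± 1.17 from 7SL RNA (SD, n = 2). Small nuclear and small nucleolar RNAs together stayed below 2% of the sum in each library.

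**Figure D1:**
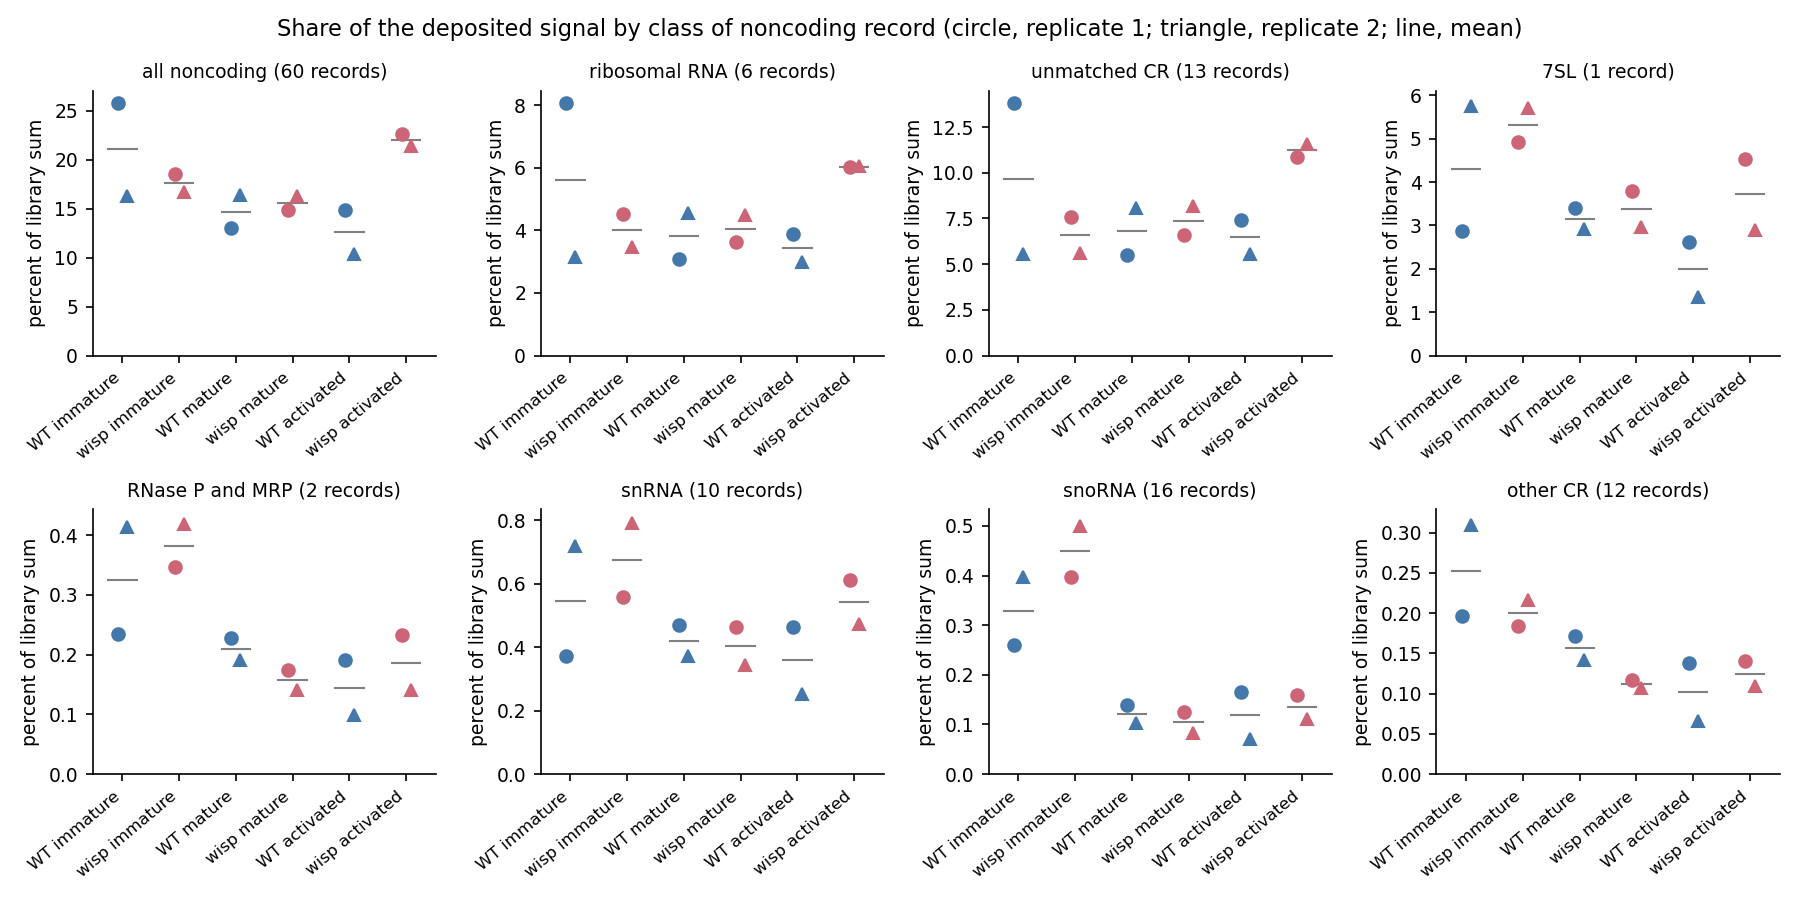
Percent of each library's sum (y axis) held by all 60 noncoding records and by each class, for the 6 groups (x axis), with wild type (WT) in blue and the wisp mutant in red. Both mutant activated egg libraries lie above both wild type ones for all noncoding records (22.6% and 21.4% against 14.9% and 10.4%), and the small nucleolar RNA share is highest in the immature groups.

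The ribosomal RNA records were those left after depletion, and 5 of the 6 are annotated as pseudogene fragments of the ribosomal DNA on the X chromosome or an unplaced ribosomal DNA scaffold. The sixth, CR41548, is annotated as an 18S ribosomal RNA gene inside a ribosomal precursor unit. Ribosomal units are near-identical repeats, so how reads were shared among these records is uncertain. The largest, CR40596, a 28S pseudogene record, was at 451545 and 150202 in wild type immature oocytes, 151557 and 266591 in wild type mature oocytes, and 186357 and 192529 in wild type activated eggs. In the mutant it was at 262855 and 176922, then 207187 and 277722, then 351497 and 345408. Only the activated eggs separated the genotypes, with both mutant libraries higher. The 2S pseudogene record CR40677 was at 106329 and 91950 in wild type activated eggs and at 181234 and 305821 in mutant activated eggs, and at 329268 and 68646 in wild type immature oocytes. The 28S pseudogene record CR40741 reached 226062 and 77906 in wild type immature oocytes and lay between 15558 and 78812 in the other 10 libraries. The 28S pseudogene record CR41609 ranged from 32151 to 92637 over the 12 libraries.

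None of these 6 records was called in any comparison (0 in each of 9). Of all 5421 records, 0% were called in wild type maturation and 25% in mutant against wild type activated eggs, the largest share. In mutant against wild type activated eggs, 6 of 6 changes were positive with a median log2 change of 0.78, and 5 did not overlap between genotypes. Of all 5421 records 21.4% did not overlap in that direction. The spread of this class was large and shared. In wild type immature oocytes replicate 2 was lower than replicate 1 for 6 of 6 records, with a median log2 ratio of -1.44, and in wild type mature oocytes it was higher for 6 of 6, with a median of 0.92.

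The 13 unmatched CR records behaved like the ribosomal records from library to library. Replicate 2 was lower than replicate 1 for 13 of 13 in wild type immature oocytes (median log2 ratio -1.28) and higher for 13 of 13 in wild type mature oocytes (median 0.77). The record with the largest value in the whole set, CR41583, was at 833546 and 146850 in wild type immature oocytes, 205029 and 274042 in wild type mature oocytes, and 212596 and 205464 in wild type activated eggs. The corresponding mutant values were 393038 and 178267, then 268459 and 276637, then 401791 and 711852. One wild type immature library thus held more than any mutant library. In activated eggs 13 of 13 records had positive mutant changes, with a median log2 change of 0.71. Of the 13, 11 were higher in the mutant without overlap, against 21.4% of all records. Yet 0 were called, against 25% of all records (7.3% higher and 17.7% lower). No name or role is given to them here.

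7SL RNA (3R:6822500-6822798, plus strand, dm6) was the single record with the highest value per length among the 29 annotated small noncoding RNAs, with a mean normalised read count of 151154 per 100 nt over all libraries. Its normalised read count was 395263 and 652762 in wild type immature oocytes, 376827 and 360052 in wild type mature oocytes, and 295012 and 183796 in wild type activated eggs. In the mutant it was 617445 and 696013, then 461088 and 392654, then 585724 and 406777. The genotypes overlapped in immature oocytes. In mature and in activated samples both mutant libraries lay above both wild type libraries. In activated eggs the mutant was higher by a log2 change of 1.07 (SE 0.304, limma adjusted p = 0.0357). This call was lost under 8 of 17 alternatives, with adjusted p from 8.7e-05 to 0.891, among them removal of the trend on transcript length, where the log2 change was 0.35 (adjusted p = 0.228), and quantile normalisation, where it was 0.11 (adjusted p = 0.891).

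Of 7 protein genes listed for the signal recognition particle the mRNA records of all 7 were in the table, but 1 of them, Srp54, is in flies a serine-arginine splicing protein, and the signal-binding subunit is Srp54k. In mutant activated eggs, where 7.3% of all records were higher and 17.7% lower, Srp9 was higher (log2 change 1.14, limma adjusted p = 0.0164), and Srp14 (-1.36, adjusted p = 0.00274) and the splicing protein Srp54 (-1.21, adjusted p = 0.00361) were lower. Srp9 and Srp14 pair on the Alu end of the RNA. Srp14 was at 350.7 and 286.4 in wild type activated eggs and at 140.8 and 107.6 in mutant activated eggs. Srp9 was at 569.1 and 455.7 in wild type activated eggs and at 1011 and 1251 in mutant ones. In the same libraries 7SL RNA and the Srp9 mRNA were thus higher and the Srp14 mRNA was lower. In mutant mature oocytes Srp14 (-1.75, adjusted p = 0.00149) and Srp54 (-0.95, adjusted p = 0.0119) were also lower. During mutant maturation 3 of the 7 fell, Srp54 among them (11.4% of all records fell). Srp54k was not called in any of these comparisons.

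RNase P RNA, which cuts the leader from tRNA precursors, lies within an intron of ATPsynC, listed as CG1746, on the same strand (3R:31217364-31217662, dm6). It was at 4873 and 7545 in wild type immature oocytes, 4569 and 4348 in wild type mature oocytes, and 3483 and 2278 in wild type activated eggs. Mutant libraries held 7824 and 9631, then 5540 and 5317, then 8211 and 5216. Both mutant libraries lay above both wild type libraries at each of the 3 stages. The difference was called in activated eggs (log2 change 1.22, SE 0.315, limma adjusted p = 0.0257) and not in mature oocytes (0.28, adjusted p = 0.758) or immature oocytes (0.52, adjusted p = 0.81). The record of its host gene, which encodes a subunit of the mitochondrial ATP synthase, had a log2 change of 0.95 in activated eggs (adjusted p = 0.0727). Without a strand or intron filter known for the counting, reads from an unspliced host cannot be told apart from the small RNA. The call in activated eggs was lost under 6 of 17 alternatives (adjusted p from 8.8e-05 to 0.181), among them removal of the length trend, where the log2 change was 0.50 (adjusted p = 0.158).

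RNase MRP RNA, which cuts ribosomal RNA precursors, lies inside CG10365 on the opposite strand. It was at 27596 and 39375 in wild type immature oocytes and at 35651 and 41416 in mutant ones. In mature oocytes it was at 20657 and 19340 in wild type and at 15644 and 13333 in the mutant. In activated eggs it was at 17875 and 11236 in wild type and at 21801 and 14665 in the mutant. The immature libraries were the highest in both genotypes. The fall during mutant maturation was called (log2 change -1.41, SE 0.298, limma adjusted p = 0.0183), and that in wild type was not (-0.72, adjusted p = 0.504). The difference between the falls was not called either (-0.69, adjusted p = 0.699). The call in the mutant was lost under 5 of 17 alternatives (adjusted p from 1.3e-05 to 0.124), namely quantile normalisation and the removal of any 1 of the 4 libraries compared, with the log2 change between -1.26 and -1.53 in these. Of 6 listed protein genes of the 2 enzymes 1 was in the table, and it was not called in any comparison.

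Among small nuclear RNAs, 7SK RNA was at 21297 and 31915 in wild type immature oocytes, 17074 and 15089 in wild type mature oocytes, and 11534 and 8281 in wild type activated eggs. The mutant was at 34849 and 41540, then 19092 and 14004, then 25806 and 15517. The mutant lay above wild type without overlap in immature oocytes and in activated eggs, and the mature groups overlapped. The excess in activated eggs was called (log2 change 1.03, SE 0.323, limma adjusted p = 0.0477), as was the fall during mutant maturation (-1.22, SE 0.323, adjusted p = 0.0418). Both lay near the threshold. The first was lost under 10 of 17 alternatives (adjusted p from 0.000524 to 0.359) and fell to 0.42 on the log2 scale with the length trend removed (adjusted p = 0.359), and the second was lost under 12 of 17 (adjusted p from 7.8e-05 to 0.238). Of 5 listed 7SK particle and P-TEFb genes, all in the table, 0 were called in any comparison.

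The 3 listed copies of U2 RNA, which pairs with the branch point of introns, kept different shares in the genotypes. The copy U2:14B was at 6684 and 11724 in wild type immature oocytes and at 4893 and 6999 in mutant ones, at 9656 and 7534 against 4737 and 5908 in mature oocytes, and at 11124 and 6208 against 8557 and 9239 in activated eggs. The copy U2:38ABb was at 2729 and 5565 in wild type and 6324 and 12756 in mutant immature oocytes, at 4076 and 4569 against 9085 and 6559 in mature oocytes, and at 5733 and 4222 against 11737 and 9916 in activated eggs. The copy U2:34ABb, at 6677 to 20919 over the 12 libraries, was the largest in each library. Of the sum of the 3 copies, U2:14B made up 33.9% to 39.6% in the 6 wild type libraries and 17.2% to 27.2% in the 6 mutant libraries. U2:38ABb made up 15.0% to 24.7% in wild type and 27.8% to 33.1% in the mutant. The 2 ranges did not overlap for either copy at any stage, and no test was made, since these shares were chosen after their values were seen.

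**Figure D2:**
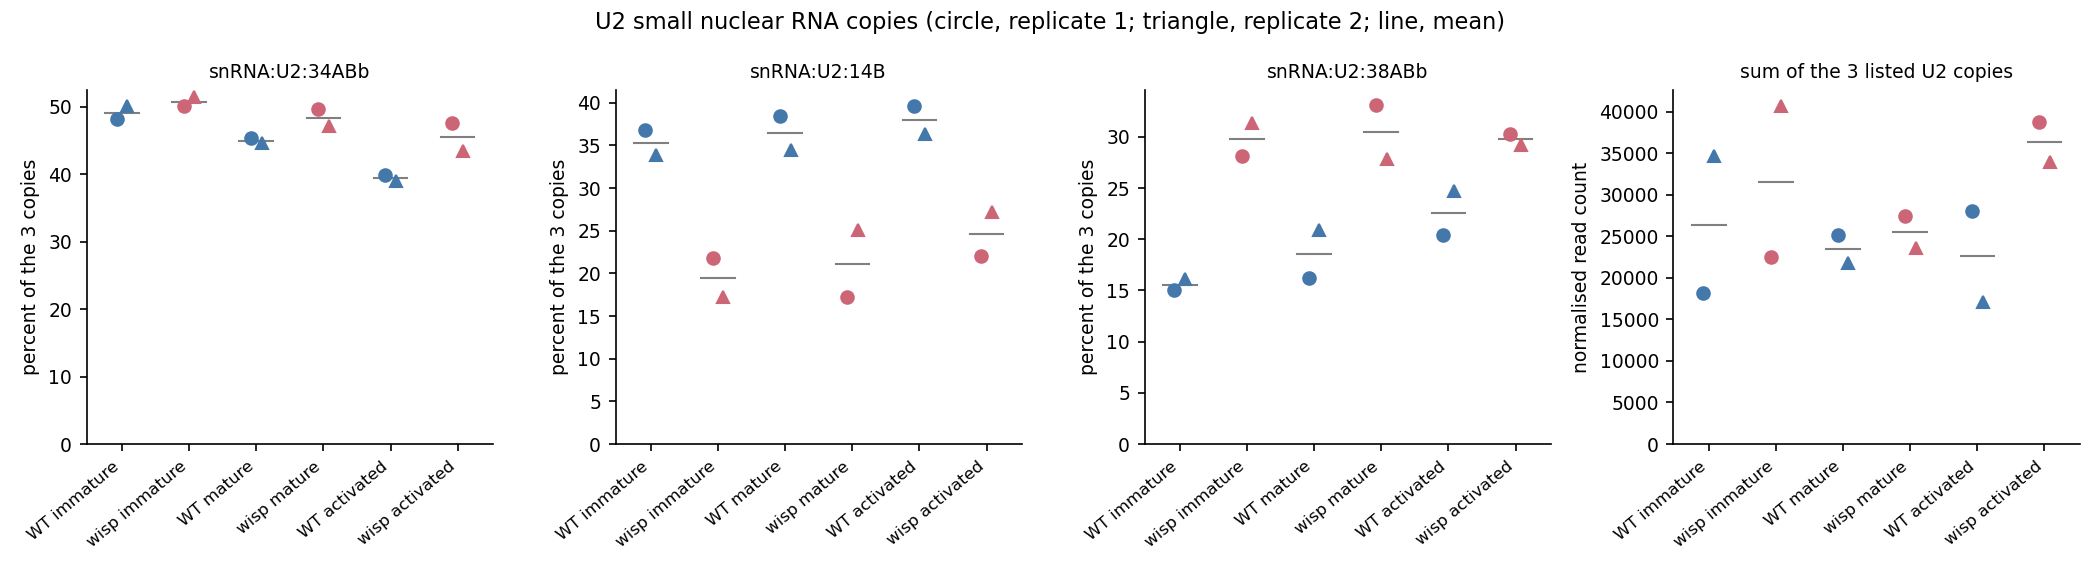
Percent of the 3 listed U2 copies held by each copy, and their summed normalised read count (y axes), in the 6 groups (x axis). The U2:14B share lies between 33.9% and 39.6% in wild type libraries and between 17.2% and 27.2% in mutant libraries.

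Taken singly, none of the 3 U2 copies was called. The largest log2 changes between genotypes were those of U2:38ABb, at 1.205 in immature oocytes (SE 0.419, limma adjusted p = 0.574), 0.84 in mature oocytes (adjusted p = 0.296) and 1.13 in activated eggs (adjusted p = 0.0799). U2 copies are nearly the same in sequence, and U2:38ABb lies within sick on the same strand. The assignment of reads to a copy is therefore uncertain.

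The 3 listed copies of U1 RNA, which pairs with the start of introns, also share nearly all of their sequence. The U1 copy 95Cc was at 512.4 and 363.9 in wild type mature oocytes and at 1180 and 1177 in wild type activated eggs, and at 554.4 and 361.1 against 907.3 and 1908 in the mutant. U1:21D was at 1825 and 1554 in wild type mature oocytes and 3646 and 2810 in activated eggs, and at 2284 and 1427 against 3642 and 5790 in the mutant. The copy 82Eb was at 1209 and 1097 against 1842 and 1475 in wild type and at 1410 and 968.5 against 2032 and 2727 in the mutant. In both genotypes each of the 3 copies was higher in both activated libraries than in both mature libraries. Of all 5421 records 18.1% in wild type and 13.7% in the mutant were higher without overlap. Copies this alike are not separate observations. None of the changes was called. They were 1.45 for copy 95Cc, 0.93 for U1:21D and 0.52 for copy 82Eb in wild type, with 0.848 as the lowest limma adjusted p, and 1.55, 1.35 and 1.01 in the mutant (each limma adjusted p = 0.664).

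U11 and U12 belong to the minor spliceosome, and U4:39B is a U4 RNA of the major one. U11 ranged from 2343 to 7175, U12 from 652.6 to 2153 and U4:39B from 599 to 1468 over the 12 libraries, and none was called in any comparison. For U4:39B, the fall during mutant maturation missed the threshold narrowly (log2 change -0.75, limma adjusted p = 0.0542), as did its excess in mutant activated eggs (0.64, adjusted p = 0.0589). Of the mRNA records of 16 listed spliceosomal particle proteins, all in the table, 4 were higher and 4 lower in mutant activated eggs, against 7.3% and 17.7% of all records. The higher ones were LSm7 (1.18, adjusted p = 0.00361), snf, the shared U1 and U2 protein (0.82, adjusted p = 0.0379), CG10418 (0.68, adjusted p = 0.0434) and SmG (0.62, adjusted p = 0.0474). The lower ones were Prp8, the core protein of the catalytic centre (-2.76, adjusted p = 0.00509), SmB (-1.93, adjusted p = 0.00159), U4-U6-60K (-1.55, adjusted p = 0.00553) and U2A (-0.73, adjusted p = 0.0073). In mutant mature oocytes 3 of the 16 were lower, SmB, U2A and U4-U6-60K, and 0 were higher (9.37% and 0.683% of all records).

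Small nucleolar RNAs were highest in immature oocytes of both genotypes. Their summed share of the library was 0.329% ± 0.0969 in wild type and 0.449% ± 0.0725 in mutant immature oocytes, 0.121% ± 0.0255 and 0.104% ± 0.0301 in mature oocytes, and 0.118% ± 0.0675 and 0.135% ± 0.0331 in activated eggs (SD, n = 2 each). The members also moved together between replicates. Replicate 2 was lower than replicate 1 for 16 of 16 in both mature groups (median log2 ratio -0.23 in wild type and -0.54 in the mutant). In activated eggs it was lower for 16 of 16 in wild type (-1.09) and 15 of 16 in the mutant (-0.73). In immature oocytes it was higher for 11 of 16 in wild type and 15 of 16 in the mutant. Members that change alike are thus not independent observations. By length they run from 140 to 316 nt. The class holds pseudouridylation guides of the H/ACA type, named for their target position. Other records, such as Or-CD2, Or-aca4 and Or-aca5, have names that give no target. The class also holds the 2 copies of U3, which is needed for cleavage of the 18S ribosomal RNA precursor, and a Cajal body RNA named for U5.

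Psi28S-2566, a pseudouridylation guide, was at 4172 and 5920 in wild type immature oocytes, 2703 and 2412 in wild type mature oocytes, and 4443 and 3047 in wild type activated eggs. In the mutant it was at 6484 and 7582, then 3516 and 2414, then 5715 and 5310. In each genotype the mature libraries were the lowest and both activated libraries lay above them. Its log2 change during mutant maturation was -1.27 (SE 0.278, limma adjusted p = 0.0216), the smallest called in the class. This call was lost under 9 of 17 alternatives (adjusted p from 5e-05 to 0.154), among them TMM scaling and the removal of any 1 of the 4 libraries compared, and the log2 change was -0.52 with the length trend removed (adjusted p = 0.122).

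Psi28S-291 was at 5040 and 6324 in wild type immature oocytes and 2461 and 2100 in mature ones, and at 7970 and 9254 against 3128 and 2113 in the mutant. In activated eggs it was at 3917 and 1793 in wild type and at 4337 and 4166 in the mutant. Immature and mature libraries did not overlap in either genotype (mutant log2 change -1.74, SE 0.358, limma adjusted p = 0.0165).

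Tudor-SN-a, which lies in an intron of Tudor-SN, was at 4502 and 6303 in wild type immature oocytes, 2075 and 1637 in mature oocytes, and 1253 and 566.3 in activated eggs. The corresponding mutant values were 6853 and 8004, then 2006 and 1623, then 2136 and 980.6. All 4 immature libraries lay above the other 8, and wild type activated eggs had the lowest values without lying apart from the mutant ones. The fall during mutant maturation was called (log2 change -2.04, SE 0.45, limma adjusted p = 0.0221), and the change on wild type activation was not.

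U3:54Aa was at 5085 and 7164 in wild type immature oocytes, 1684 and 1230 in mature oocytes, and 1843 and 598.1 in activated eggs. Mutant libraries held 4534 and 6334, then 1069 and 688, then 1101 and 688.3. All 4 immature libraries lay above the 8 others (mutant maturation log2 change -2.64, SE 0.517, limma adjusted p = 0.0138). The other U3 copy, U3:9B, was at 1752 and 3069 in wild type immature oocytes and 640.8 and 394.4 in mature ones, and at 2893 and 4547 against 573.4 and 371.1 in the mutant. Its mutant fall was the largest of the class (log2 change -2.97, SE 0.584, adjusted p = 0.0138). U3:9B made up 24.3% to 31.6% of the 2 copies in wild type libraries and 34.9% to 43.4% in mutant libraries, without overlap. The copies are near-identical, so how reads were divided is uncertain.

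Psi18S-176 was at 3107 and 2770 in wild type immature oocytes, 914 and 753.1 in mature oocytes, and 1066 and 681.6 in activated eggs. The mutant was at 3074 and 2865, then 519.2 and 318.7, then 578 and 412.7. The genotypes were alike in immature oocytes, and the mutant lay below wild type without overlap at the 2 later stages. Its mutant fall was a log2 change of -2.86 (SE 0.304, limma adjusted p = 0.00168). Or-aca5 was at 2805 and 2622 in wild type and 4439 and 4827 in mutant immature oocytes, and at 865.6 and 736.2 against 817.3 and 596.9 in mature oocytes (mutant maturation log2 change -2.73, SE 0.35, adjusted p = 0.00291). Here the mutant was higher before maturation and overlapped wild type after it.

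The other members fell in the same way with smaller values. Psi18S-1854c was at 2040 and 2756 in mutant immature and 347.3 and 341.1 in mutant mature oocytes (log2 change -2.78, SE 0.462, limma adjusted p = 0.00787). Or-CD2, of the C/D type by its name, was at 1625 and 1860 against 312.4 and 247.9 in the same libraries (-2.64, adjusted p = 0.00869). Neither overlapped between stages, and in wild type both immature libraries of each also lay above both mature ones. Or-CD2 and Or-aca5 lie in Uhg4, a noncoding host gene whose record was not among those analysed here. The Cajal body RNA MeU5-C46 had a smaller mutant change of -1.62 (adjusted p = 0.0101), and Or-aca4 one of -1.77 (adjusted p = 0.0101). Or-CD2 also overlaps an exon of Ctu1 on the opposite strand, and Or-aca4 an exon of CG44403 on the opposite strand. The library kit does not mark strand, so reads of these exons cannot be told apart from the small RNAs.

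**Figure D3:**
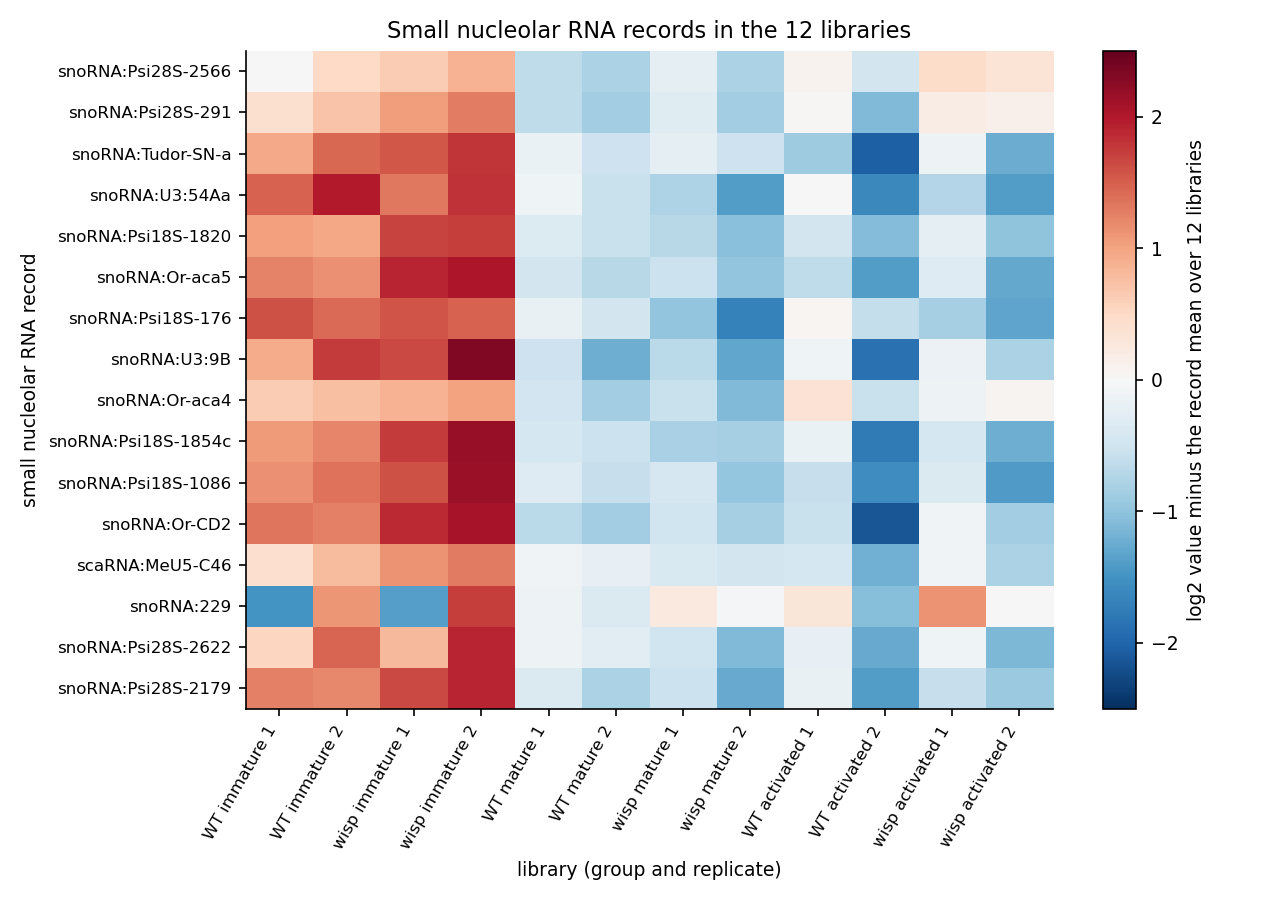
Log2 value of each of the 16 small nucleolar RNA records (rows, ordered by mean) minus its mean over the 12 libraries (columns), with red above and blue below that mean. The 4 immature libraries lie above that mean for 15 of the records, snoRNA:229 being the exception. For Psi28S-2566, wild type immature replicate 1 lies almost at the mean, below wild type activated replicate 1 and both mutant activated libraries.

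During mutant maturation 18 of the 60 noncoding records fell and 0 rose, against 13.1% of all records called in either direction and 11.4% called lower. The 18 were 15 small nucleolar RNAs, RNase MRP RNA, 7SK RNA and the antisense RNA CR43809. The range of the 15 was -1.27 to -2.97 on the log2 scale. The direction of the 18 was kept under all alternatives. Or-aca5, Psi18S-176 and Psi18S-1820 were called under all 17 alternatives and Psi28S-2179 under all 16 that could be run for it, while each of the other 11 lost its call under 1 to 9 alternatives. Of the 16 small nucleolar RNAs, 13 were called without mutant immature replicate 1, 7 without mutant immature replicate 2, 6 without mutant mature replicate 1 and 4 without mutant mature replicate 2, and the class median lay between -2.30 and -2.77. With the length trend removed 12 were called and the median was -1.52.

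In wild type maturation the class moved the same way, with 16 of 16 changes negative and a median log2 change of -1.58, while 0 of 60 noncoding records and 0% of all records were called. At an unadjusted limma p under 0.05, 14 of the 16 were lower, against 3.86% of all records, and 15 of 16 did not overlap between stages in that direction, against 17.4%. Immature replicate 1 of wild type, whose ribosomal and CR records stood far above replicate 2, still held more than both mature libraries for 15 of the 16. The difference of the falls between genotypes had a median of -0.81 over the class and 16 of 16 negative values. In the fit without a replicate block 0 of the 60 members were called for it, against 1.03% of all records. At an unadjusted limma p under 0.05, 3 members passed there, all lower (11.9% of all records in either direction). In immature oocytes 15 of 16 changes from wild type to mutant were positive (median log2 change 0.57) and 11 did not overlap between genotypes, against 15.9% of all records. In mature oocytes 12 of 16 changes were negative (median -0.22). In the fit of group means none of the 16 was called between genotypes at any of the 3 stages.

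Of the 16, 8 lie in an intron of a gene that is itself in the table and runs on the same strand, so the small RNA and its host can be set side by side. As for RNase P RNA, reads from an unspliced host cannot be told apart from the small RNA, which limits each pair. During mutant maturation the median log2 change was -2.30 for these 8 small RNAs and -0.66 for their hosts, and in wild type -1.49 and -0.57. The small RNA fell below its host in 7 of 8 pairs in both genotypes. Psi28S-2179 lies in RpL22, which encodes a ribosomal protein. It was at 890.2 and 1058 in mutant immature and 196.2 and 118.2 in mutant mature oocytes, a log2 change of -2.66 (SE 0.388, limma adjusted p = 0.00471). RpL22 was at 10016 and 15609 against 12291 and 12296 in the same libraries (log2 change -0.02, adjusted p = 0.956), so its libraries overlapped where those of the small RNA did not. Psi18S-1820 lies in Nop60B, the pseudouridine synthase of H/ACA particles. It had a log2 change of -2.57 (SE 0.294, adjusted p = 0.00195) against -0.92 for Nop60B (adjusted p = 0.00965). RpS5a, which holds Psi18S-1854c, also fell (-1.40, limma adjusted p = 0.0146), against -2.78 for that small RNA. The change of RpL22 was the smallest of the 8 hosts.

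The exception was snoRNA:229, which lies in an intron of Fib, the gene of fibrillarin, the methyltransferase of C/D particles. snoRNA:229 was at 114 and 688.6 in wild type immature oocytes and at 124.5 and 1062 in mutant ones, so that its replicates were further apart than its groups. In mature oocytes it was at 293.5 and 251.2 in wild type and 381.4 and 310.2 in the mutant, and in activated eggs at 399.4 and 153.3 and at 699.5 and 324.8. Its mutant maturation change was -0.08 (SE 1.08, limma adjusted p = 0.963). Fib was at 1522 and 1846 in mutant immature and 198.2 and 157.2 in mutant mature oocytes (log2 change -3.24, adjusted p = 0.000779), and at 1006 and 914.9 in wild type mature oocytes. In mature oocytes of the mutant the intronic record was thus above the host record, whereas in wild type it was below. The large error of snoRNA:229 leaves its change undetermined.

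**Figure D4:**
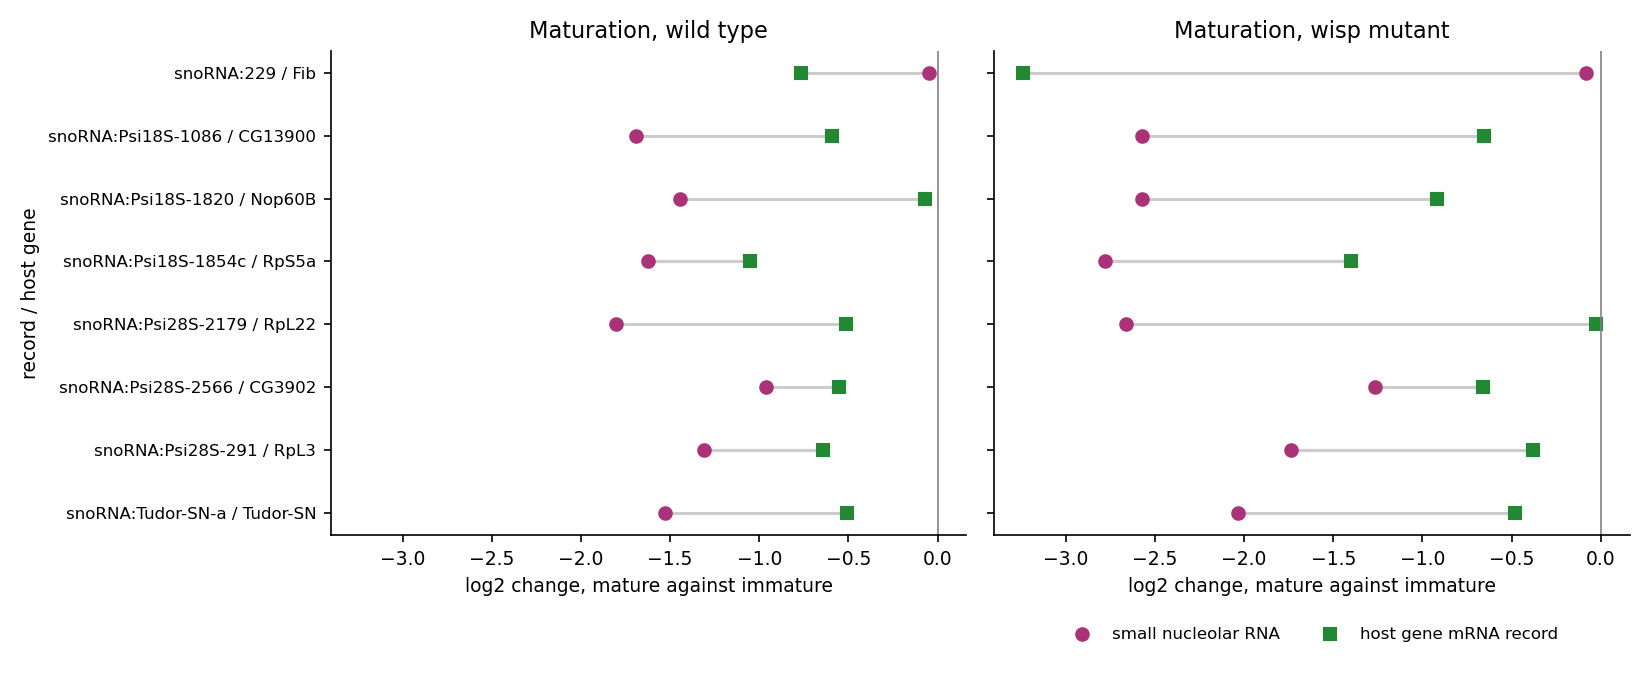
Log2 change from immature to mature oocytes (x axis) of 8 small nucleolar RNAs (circles) and of the genes whose introns hold them (squares), in wild type (left) and the wisp mutant (right). The small RNA lies below its host in 7 of 8 pairs in each genotype, with snoRNA:229 and Fib as the exception.

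The mRNA records of genes for nucleolar particle proteins fell at the same transition. Of 10 listed symbols, some of them 2 spellings of 1 gene, 6 were in the table, and all 6 fell during mutant maturation (11.4% of all records), with a median log2 change of -1.36. They were Fib, NHP2, a shared H/ACA protein (-2.51, limma adjusted p = 0.000755), Nop56 (-1.58, adjusted p = 0.00922) and nop5 (-0.69, adjusted p = 0.0465), the 2 scaffold proteins of C/D particles, hoip, their RNA-binding protein (-1.13, adjusted p = 0.015), and Nop60B. Fib and NHP2 were also lower in the mutant than in wild type in mature oocytes (-2.44, adjusted p = 0.00201, and -1.95, adjusted p = 0.00161) and in activated eggs (-2.84, adjusted p = 0.00123, and -1.66, adjusted p = 0.00249). Their falls differed between genotypes (-2.47, adjusted p = 0.0333 for Fib, and -2.13, adjusted p = 0.0274 for NHP2). Over all 8 partner lists 42 of 58 symbols were in the table. In the mutant, 0 were higher and 7 lower in mature oocytes, against 0.683% and 9.37% of all records. In activated eggs 5 were higher and 9 lower, against 7.3% and 17.7%. During mutant maturation 0 rose and 12 fell, against 11.4% of all records that fell. Among the 4 dosage compensation genes, mle, an RNA helicase, was lower in activated eggs (log2 change -0.997, adjusted p = 0.00771) and fell during mutant maturation. The 1 listed histone mRNA processing gene and the 2 RNA chaperone genes were not called.

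The 12 other CR genes held both calls in mature oocytes and 3 of the 6 in activated eggs. CR32207 (3L:19477329-19478720, minus strand, dm6) is annotated as a hairpin RNA, a long inverted repeat transcript of the kind that Dicer-2 cuts into endogenous small interfering RNAs. It was at 174.1 and 391.2 in wild type immature oocytes, 234.3 and 178.5 in wild type mature oocytes, and 230.2 and 161.7 in wild type activated eggs. In the mutant it was at 1113 and 1197, then 626.5 and 710.9, then 820.3 and 528.9. Every mutant library lay above every wild type library. The log2 change was 1.70 in mature oocytes (SE 0.379, limma adjusted p = 0.0249), 1.77 in activated eggs (SE 0.379, adjusted p = 0.0146) and 2.14 in immature oocytes, where it missed the threshold (SE 0.379, adjusted p = 0.0676). The call in mature oocytes was lost under 7 of 17 alternatives (adjusted p from 4e-06 to 0.199), among them TMM scaling (adjusted p = 0.0533) and each removal of a single library, with the log2 change between 1.51 and 2.02 in these. The call in activated eggs was lost under 2 of 17 (adjusted p from 2e-06 to 0.114), without wild type replicate 2 and without mutant replicate 1. Part of CR32207 overlaps a pseudogene on the other strand, and the library kit is not one that marks strand.

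CR43809 (2L:21102586-21104298, minus strand, dm6), annotated as antisense to part of CG9257, was at 191.3 and 201.2 in wild type immature oocytes, 248.8 and 256.6 in wild type mature oocytes, and 221 and 192.7 in wild type activated eggs. The corresponding mutant values were 202.2 and 285.4, then 138.8 and 117, then 196.2 and 210.6. Only in mature oocytes was the mutant lower without overlap (log2 change -0.98, SE 0.173, limma adjusted p = 0.00964), and the fall during mutant maturation was called as well (-0.91, SE 0.173, adjusted p = 0.0123). These values lie close to the floor of 100 for entry in the table. CG9257 had changes of -0.52 (adjusted p = 0.321) and -0.62 (adjusted p = 0.164) in these 2 comparisons. The call between genotypes was lost under 5 of 16 alternatives (adjusted p from 0.000163 to 0.539), among them quantile normalisation and removal of either wild type library or of mutant replicate 2. The call of the fall was lost under 5 of 16 (adjusted p from 0.000147 to 0.193).

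CR43430, antisense to exons of hts, the adducin gene of the germline fusome and ring canals, was at 1461 and 1367 in wild type immature oocytes, 1317 and 1463 in wild type mature oocytes, and 1423 and 1965 in wild type activated eggs. Mutant libraries held 1199 and 1676, then 1190 and 1298, then 972.5 and 692.3. The mutant activated eggs were the lowest of the 6 groups (log2 change -1.03, SE 0.25, limma adjusted p = 0.0213). This call was lost under 4 of 17 alternatives (adjusted p from 0.000666 to 0.156), which were quantile normalisation, use of only the libraries compared, and removal of wild type replicate 2 or mutant replicate 2. The hts record was lower in the same comparison (-0.83, adjusted p = 0.0343), and reads of the 2 strands cannot be told apart. CR44431 (X:21043550-21044024, minus strand, dm6), antisense to Mgstl, was at 310.4 and 342.7 in wild type and 761.4 and 507.7 in mutant activated eggs (log2 change 0.93, SE 0.23, limma adjusted p = 0.0224), at 396.3 and 344.1 against 552.4 and 592.3 in mature oocytes, and at 357.9 and 506.6 against 631 and 648.2 in immature oocytes. The mutant was above wild type without overlap at each stage. Mgstl had a change of 0.43 in activated eggs (adjusted p = 0.33). The call of CR44431 was lost under 7 of 16 alternatives (adjusted p from 0.000448 to 0.376), among them removal of the length trend, where the log2 change was 0.33 (adjusted p = 0.376), and removal of either wild type library or of mutant replicate 1.

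**Figure D5:**
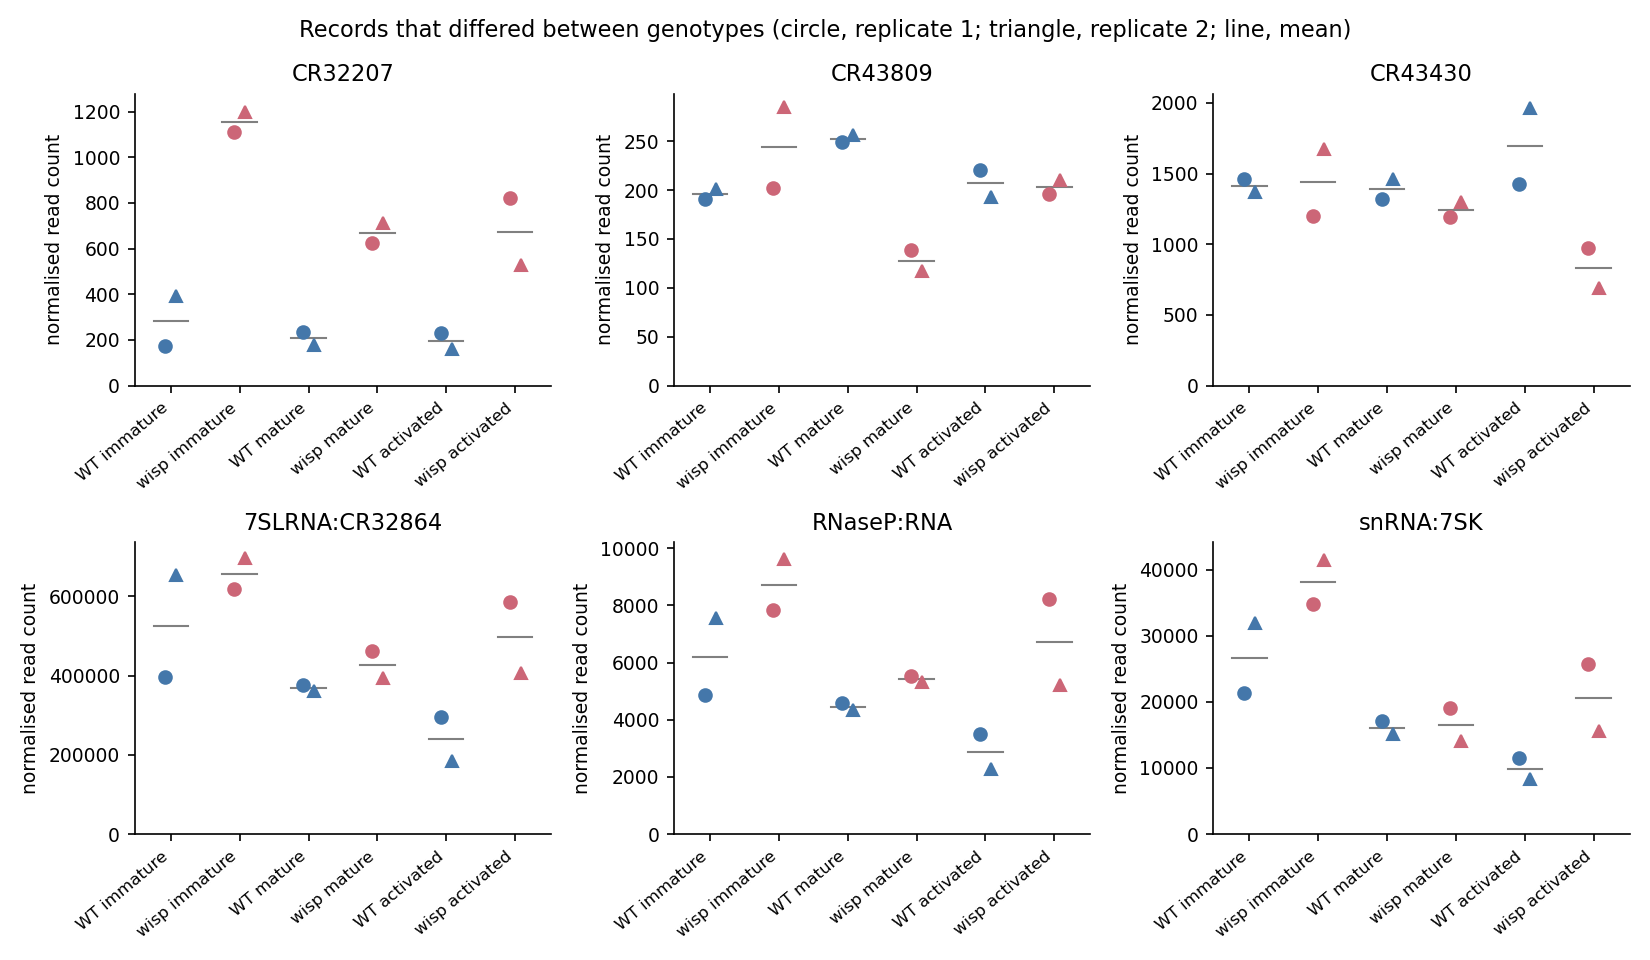
Normalised read count (y axes) of 6 of the 7 noncoding records called between genotypes at any stage (CR44431 is not drawn), in the 6 groups (x axis). All 6 mutant libraries of CR32207 lie between 528.9 and 1197, above the wild type libraries at 161.7 to 391.2.

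The most abundant of the other CR genes by normalised read count, CR34335 (X:3545750-3546110, minus strand, dm6), lies inside DIP-alpha on the same strand. It was at 22384 and 30499 in wild type immature oocytes, 14633 and 12880 in wild type mature oocytes, and 11480 and 4160 in wild type activated eggs. The mutant was at 17063 and 20450, then 9464 and 8904, then 12937 and 10010. Immature libraries were the highest in both genotypes, and none of its changes was called. CR43463, antisense to Pgant35A, was at 397.7 and 426.5 in wild type and 290.6 and 122.8 in mutant activated eggs (log2 change -1.12, limma adjusted p = 0.0591). CR30055, inside Sin3A on the opposite strand, had replicates far apart in both immature groups, at 564.2 and 112.6 and at 638.1 and 130.7. The 5 remaining records, CR43685, CR45324, CR32027, CR45275 and CR44155, ranged from 108.7 to 777.9 and were not called.

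Set against all records, the 18 of 60 called in mutant maturation (13.1% of all records) were the most in any comparison. In immature oocytes 0 were called between genotypes (limma, 0.111% of all records), with 4 at an unadjusted p under 0.05 (6.88% of all records) and 22 higher without overlap (15.9% of all records). In mature oocytes 1 was higher and 1 lower (10.1% of all records called, 0.683% higher and 9.37% lower). In activated eggs 5 were higher and 1 lower (25% of all records, 7.3% higher and 17.7% lower). In that comparison 54 of the 60 changes were positive, with a median log2 change of 0.65, whereas the median over all records was -0.16, and 32 of the 60 were higher without overlap, against 21.4% of all records. During wild type activation 0 were called (0.0553% of all records), with 8 at an unadjusted p under 0.05 (3.04%). During mutant activation 0 were called (0.0184%), with 11 at an unadjusted p under 0.05 (5.53%). The genotype difference of the activation change gave 0 (0% of all records), with 4 at an unadjusted p under 0.05 (8.19%).

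Short protein coding records also tended to be higher in mutant than in wild type activated eggs. The 91 protein coding records of up to 600 nt had a median log2 change of 0.63 in that comparison, with 39 higher and 5 lower, while all 5361 coding records had a median of -0.17. The 29 annotated small noncoding RNAs, at up to 444 nt, had a median of 0.51. Among the noncoding classes the small nucleolar RNAs, at 140 to 316 nt, had the smallest median (0.20). The ribosomal RNA records, at 30 to 2775 nt, had a median of 0.78. The other CR genes, at 361 to 2058 nt, had one of 0.69, and the unmatched CR records, of unknown length, one of 0.71. In mutant maturation the coding records of up to 600 nt had a median of -0.37, with 0 higher and 16 lower, and the small nucleolar RNAs a median of -2.57. The part of length in these differences was not tested beyond the removal of the trend given above.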

How the data were processed

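Per the labels' protocols, total RNA of 12 libraries received an equal amount of ERCC spike-in and was depleted of ribosomal RNA with Ribo-Zero before TruSeq RNA v2 library preparation, a kit that does not mark strand. The table deposited by the authors holds normalised read counts, which are not whole numbers and are treated here as a signal. Tools named in the submitters' processing notes are STAR 2.4.2a, HTSeq and RSEM 1.2.25, with dm6 as build and no roles stated. How values were normalised is not stated in what was used here, and 0 ERCC rows were present. Of 5422 rows 1 identical duplicate was removed. Of the 60 noncoding records 40 matched the RefSeq gene table by accession, 7 by locus tag or symbol and 13 not at all. Coordinates and lengths of 47 came from the Ensembl annotation of the same build.

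Values were analysed as log2(value + 1), the scale of all fold changes, and a minimum mean of 10 removed 0 records. A limma fit (limma 3.58.1 in R 4.3.3, with intensity trend) of 6 group means tested 9 contrasts over 5421 records, with 6 residual and 2.43 prior degrees of freedom. The code was tested on simulated data. Depth is unknown, so no counting interval is given. Precision rests on 2 libraries per group, with the spread pooled over groups. Members, classes, partner lists and marker lists were chosen with earlier results of these data known. Library values are given for the most abundant members of each class and for called members. The U1, U2 and U3 copies, snoRNA:229, CR43463 and CR30055 were added after their values were seen. Alternatives were other pseudocounts, a minimum mean of 500, TMM, median-of-ratios, coding-sum and quantile scaling, replicate blocks, removal of a length trend, other limma settings, only the libraries of a contrast, and each library left out.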

Additional observations from a re-analysis of the deposited data

Results flagged for a closer look

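CR41535, a record that matched nothing in the reference used here, was flagged because its genotype difference pointed in opposite directions at 2 stages without overlap. In immature oocytes it was lower in the mutant (log2 change -0.53, with 278292 and 173504 in wild type and 138627 and 167669 in the mutant). In activated eggs it was higher (0.68, with 172875 and 137537 in wild type and 292333 and 209026 in the mutant). This difference between stages was not tested.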

How the results depend on the processing

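Of the alternatives run on the 26 called changes, 321 kept and 116 lost the call, and none reversed one. In mature oocytes the 2 calls between genotypes became 1 with a minimum mean of 500 or an equal coding sum, 0 with TMM or quantile scaling, 4 without the length trend, 19 with only the libraries of the contrast and 0 to 1 with single libraries left out. In activated eggs the 6 calls became 2 with an equal coding sum or quantile scaling, 3 without the length trend, and 0 to 9 with single libraries left out, 0 without wild type replicate 2 and 2 without mutant replicate 1. The 18 falls of mutant maturation became 4 to 14 with single libraries left out, the lowest without mutant mature replicate 2, and 12 to 18 under the other alternatives without a block within stages. The genotype difference of maturation gave 0 to 1. The cause was not tested. TMM moved the median log2 change of all records in activated eggs from -0.16 to 0.03.

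With a replicate block within each stage more of all 5421 records were called in each of the 9 comparisons, and more of the 60 in 8 of the 9. In the genotype difference of activation 0 of the 60 and 1 of all records were called. The calls among the 60 became 9 in immature oocytes (8 higher in the mutant and 1 lower, with 267 of all records called), 10 in mature oocytes (3 higher and 7 lower, 1302 of all records) and 40 in activated eggs (37 higher and 3 lower, 2909 of all records). They became 29 for wild type maturation (5 higher and 24 lower, 1532 of all records), 6 for wild type activation (3 each way, 52), 35 for mutant maturation (7 higher and 28 lower, 2891), 12 for mutant activation (12 higher, 127) and 11 for the genotype difference of maturation (2 higher and 9 lower, 531). Of the 16 small nucleolar RNAs, 6 were then higher in mutant immature oocytes, 3 lower in mutant mature oocytes, and 7 higher and 1 lower in mutant activated eggs, 15 fell in wild type maturation, and 8 were lower for the genotype difference of maturation. Whether the numbers pair libraries is not stated. Same-numbered libraries of the 2 genotypes deviated together within a stage (correlations 0.849, 0.483 and 0.771 over records), but immature ones deviated against the other stages (-0.938 to -0.31).

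Of the protein coding sum, noncoding records made up 27.13% in wild type and 21.42% in mutant immature samples. In mature samples these shares were 17.26% in wild type and 18.49% in the mutant, and in activated samples 14.55% and 28.17%. Without the most abundant record, the shares of the library sum were 17.4% and 13.01% in wild type and mutant immature samples. They were 11.9% and 12.64% in mature samples and 10.88% and 18.97% in activated samples. Single libraries gave 16.27% to 25.83% (wild type immature), 16.74% to 18.52% (mutant immature), 13.01% to 16.36% (wild type mature), 14.88% to 16.31% (mutant mature), 10.4% to 14.89% (wild type activated) and 21.37% to 22.58% (mutant activated). Unknown depth and 2 libraries per group limit all values, those near the floor of 100 most.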
